A study of Rattus norvegicus with 18 samples.

Results

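RNA that came down with an antibody to FLAG was compared with unprecipitated RNA from the same kind of axoplasm. The 3 FLAG RIP and 3 Input libraries were chosen by their titles and are 6 of the 18 libraries of the study. Axoplasm, the cytoplasm squeezed out of axons, came from the proximal sciatic nerve of SD (Sprague-Dawley) rats 7 days after a crush. In both groups the rats were otherwise untreated as far as the labels say, and age, sex and the number of animals per library were not stated there. FLAG RIP libraries hold RNA precipitated with a FLAG antibody and Protein A/G dynabeads after the axoplasm had been precleared with the same beads. Input libraries hold axoplasm RNA without precipitation. The remaining 12 libraries are RIPs of hnRNP H1, hnRNP F, hnRNP K and La/SSB, again in 3 libraries each. Nothing in the labels says that libraries came from separate animals, so each p-value here reflects the spread among libraries, which may be technical.

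RNA immunoprecipitation (RIP) pulls an RNA-binding protein out of a lysate with an antibody and reads the RNA attached to it. FLAG is a short synthetic peptide tag, and untagged rats do not make it. A FLAG precipitate therefore holds RNA retained by the beads, the antibody or proteins sticking to them, and it is the usual baseline against which a specific precipitate is read. Its makeup against Input shows which RNAs that baseline holds more or less of. Extruded axoplasm is not free of other material: RNA from fibroblasts, Schwann cells, macrophages and blood travels with it. In bulk RNA of this kind, fewer cells of a type and less RNA per cell cannot be told apart.

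Neuronal markers were detectable but low in Input. Of 17 entries in the neuronal list, 13 had enough reads to be tested, and together the list held 0.0781%, 0.0676% and 0.0581% of Input reads. A large part of that share was Ntrk2 alone, with 2079, 1666 and 1294 reads in Input 1 to 3. The fibroblast and perineurial list held 10.4%, 7.13% and 5.41% of Input reads and the Schwann cell list 0.465%, 0.521% and 0.437%. Read totals were 15476233, 7137178 and 16754262 in FLAG RIP 1 to 3 and 4710949, 4610750 and 4731440 in Input 1 to 3. The FLAG libraries were thus deeper, but they held fewer different transcripts. Transcripts at 0 reads numbered 1601, 776 and 1568 in FLAG RIP and 603, 477 and 418 in Input, out of 13416 entries. Brought to an equal 4610750 reads, the expected number of detected transcripts was 11246, 12522 and 11269 in FLAG RIP and 12807, 12939 and 12992 in Input. The groups did not overlap in either measure (exact permutation test, two-sided, p = 0.1, the smallest that 3 against 3 libraries allow).

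The FLAG libraries also differed more from each other. Pearson's r of log2 CPM (counts per 1e6 reads, here scaled by TMM) over 11663 transcripts was 0.733, 0.661 and 0.751 between FLAG libraries and 0.873, 0.874 and 0.9 between Input libraries. FLAG RIP 2 had r of 0.763, 0.805 and 0.818 with the 3 Input libraries, which is higher than its r with either FLAG RIP 1 (0.733) or FLAG RIP 3 (0.751). Per transcript, the SD of log2 CPM over a group's 3 libraries had a median of 0.99 in FLAG RIP and 0.446 in Input. An SD above 1 was found for 49.5% of transcripts in FLAG RIP and 15.6% in Input. Reads were less concentrated after precipitation: the 100 most abundant transcripts took 22.2%, 25.2% and 22.6% of FLAG RIP reads and 35.3%, 33.1% and 31.3% of Input reads (exact permutation test, two-sided, p = 0.1, the smallest possible). The most abundant transcript differed too. Col1a1 alone held 7.94%, 5.04% and 3.74% of Input reads, while the top transcript of each FLAG library was the globin Hba1 (2.01%), LOC100909555 (3.89%) and the apolipoprotein Apod (3.28%).

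**Figure D1:**
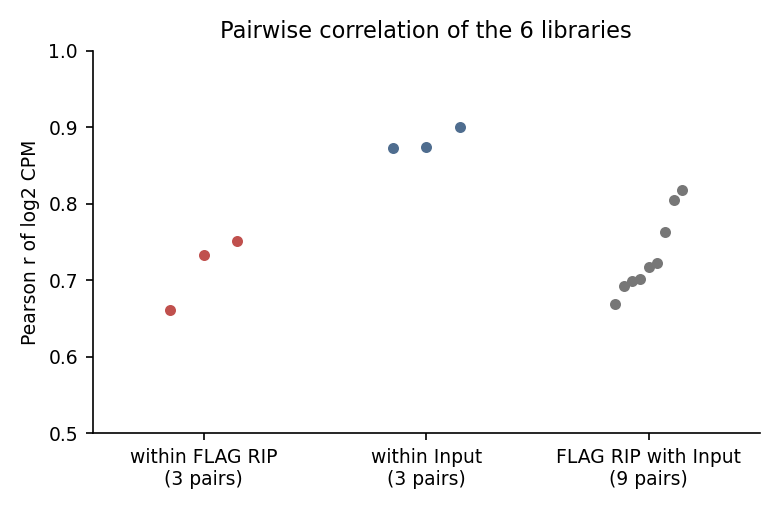
Pearson's r of log2 CPM over 11663 transcripts (y axis) for each pair of libraries, 1 point per pair, grouped by kind of pair. The 3 pairs of FLAG RIP libraries (0.661 to 0.751) lie below the 3 pairs of Input libraries (0.873 to 0.9), and overlap the range of the 9 pairs of 1 FLAG RIP with 1 Input library (0.669 to 0.818).

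Against Input, most called transcripts were lower in the FLAG RIP. Collagen chains Col1a1, Col8a1, Col4a1 and Col5a1, the crosslinking enzyme Lox, elastin (Eln), the receptor Nrp1 and the integrin Itga6 fell, as did the RNA of ribonuclease P. The 8 transcripts that rose included Jun, a transcription factor of the axonal injury response, the interferon-induced Ifitm1 and calmodulin (Calm2). Of 11663 transcripts tested, 82 (0.703%) were called at an adjusted p under 0.05, 74 lower (0.634%) and 8 higher (0.0686%) in FLAG RIP, by edgeR's quasi-likelihood test with Benjamini-Hochberg adjustment. Scaled by total counts instead of TMM, the split was 66 lower and 17 higher. Without adjustment 2059 transcripts (17.7%) had p under 0.05, of which 957 were lower and 1102 higher.

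The number of calls changed when 1 library was left out. It was 83 without FLAG RIP 1, 12 without FLAG RIP 2, 53 without FLAG RIP 3, 4 without Input 1 and 6 without Input 3. Without Input 2, edgeR called 0, with 1261 transcripts at an unadjusted p under 0.05. The 82 transcripts kept their direction in each of these fits. Their groups did not overlap, so leaving out 1 library could hardly change it, and this says little about stability. Of the 82, 20 were called in 0 of the 6, among them Jun, Calm2 and Arhgdia, which rose, and Rplp0, Ntrk2 and Tmed2, which fell. Another 30 were called in 1, 22 in 2, 5 in 3, 1 in 4 and 4 in 5. When the spread was estimated over all 18 libraries, where the common dispersion was 0.425 against 0.598 in the 6, 1576 transcripts were called, 980 lower and 596 higher, and DESeq2 on the 6 libraries called 473 lower and 610 higher. In the authors' deposited table, 1245 entries were lower and 1557 higher in FLAG RIP at an FDR under 0.05.

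Differences that did not pass were widespread. The median log2 fold change of all transcripts was 0.13, and 39.8% of transcripts (4640) had an estimated change of more than 1 on the log2 scale in either direction. In 1786 transcripts (15.3%) all 3 FLAG libraries lay below all 3 Input libraries, and in 1409 (12.1%) they lay above. These shares are the background given for every list described here, but they changed with level. Of the 619 transcripts with a mean of up to 3 CPM over the 6 libraries, 2.26% lay above and 24.2% below. Of the 445 over 300 and up to 1000 CPM, 27.6% lay above and 21.3% below, and of the 86 over 1000 CPM, 22.1% and 40.7%. The lists were not compared with transcripts of matching level. Of the 82 called transcripts, all 82 had groups that did not overlap, and the smallest called change was 1.24. Called-lower transcripts were abundant and long. Their median mean level in Input was 481.1 CPM against 22.9 CPM for all tested, and their median length was 3938 bases against 2305. With the length trend of each library removed, 20 transcripts were called, 19 of them among the 82. The part of level was not tested.

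**Figure D2:**
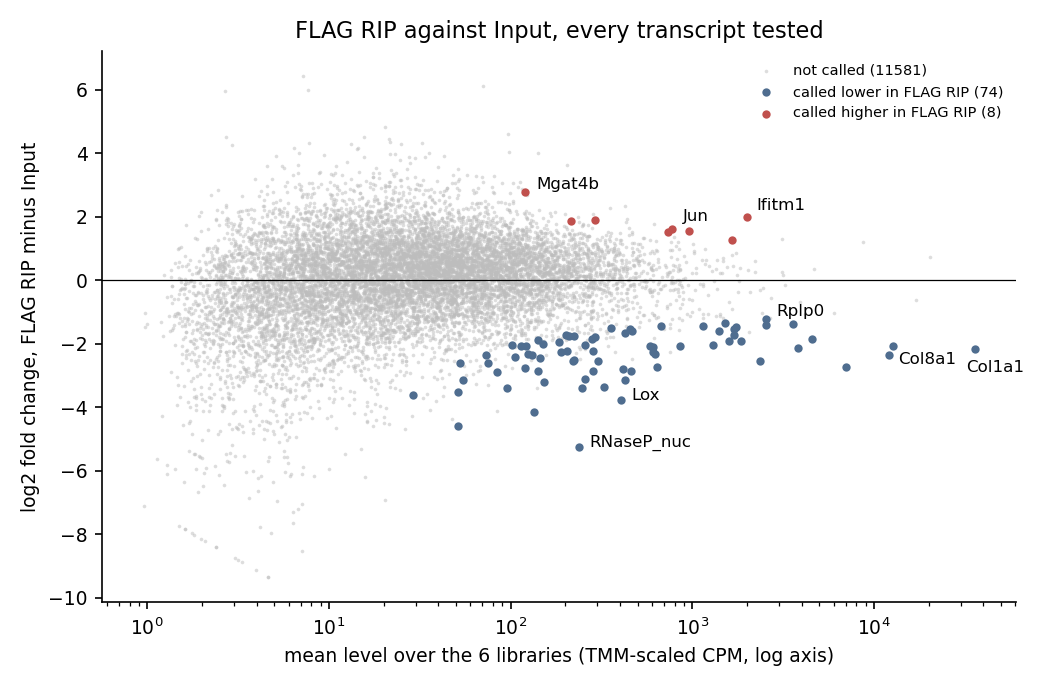
Log2 fold change of FLAG RIP minus Input (y axis) against the mean level over the 6 libraries in TMM-scaled CPM (x axis, log scale), 1 point per transcript tested. The 74 transcripts called lower and the 8 called higher lie at the abundant end of the cloud, while the widest estimated changes are mostly in rare transcripts that were not called.

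Among the 8 transcripts that rose, Mgat4b had the largest change. Mgat4b, an enzyme that branches N-linked sugar chains in the Golgi, was at 180.8, 166.1 and 282.5 CPM in FLAG RIP and 41.2, 21.4 and 28.8 CPM in Input. Even its lowest FLAG library was far above its highest Input library, and the log2 fold change was 2.78 ± 0.41 (SE, 3 against 3; edgeR adjusted p = 0.0333). Ifitm1, a membrane protein that restricts virus entry, was at 2449, 2806 and 4382 CPM in FLAG RIP and 697, 753.3 and 949.4 CPM in Input. By mean level it was the most abundant of the 8 in FLAG RIP, with a log2 fold change of 2.01 ± 0.28 (edgeR adjusted p = 0.0297). Reads of Ifitm family members can be split between similar genes, so its share of the family is uncertain.

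Jun, the AP-1 subunit induced in neurons and Schwann cells after nerve injury, was at 1227, 899 and 1347 CPM in FLAG RIP and 393.2, 459.7 and 288 CPM in Input. Its groups were well apart, with a log2 fold change of 1.61 ± 0.27 (edgeR adjusted p = 0.0434). Pura, a single-stranded nucleic acid binding protein that takes part in RNA transport in neurons, was at 379.9, 327 and 303.7 CPM in FLAG RIP and 92.5, 82.2 and 100.2 CPM in Input (1.88 ± 0.27, edgeR adjusted p = 0.0326). Calm2, one of the calmodulin genes, was at 479, 316.4 and 585.2 CPM against 94.8, 125.8 and 150.1 CPM (1.90 ± 0.33, edgeR adjusted p = 0.0464). The other 3 were closer to Input. Rab7a, the GTPase of late endosomes, rose by 1.55 ± 0.24, the transcription factor Maf by 1.52 ± 0.23, and Arhgdia, a GDP dissociation inhibitor, by 1.26 ± 0.21 on the log2 scale. Arhgdia varied little among Input libraries, at 930.2, 983.6 and 993.8 CPM, and more in FLAG RIP, at 2840, 2015 and 2129 CPM. Without Input 1, without Input 2 or without Input 3 none of the 8 was called by edgeR. Jun, Calm2 and Arhgdia were called in 0 of the 6 fits that each left out 1 library. With library number as a block in the fit, 1 transcript was called higher, Ifitm1 (edgeR adjusted p = 0.0114).

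**Figure D3:**
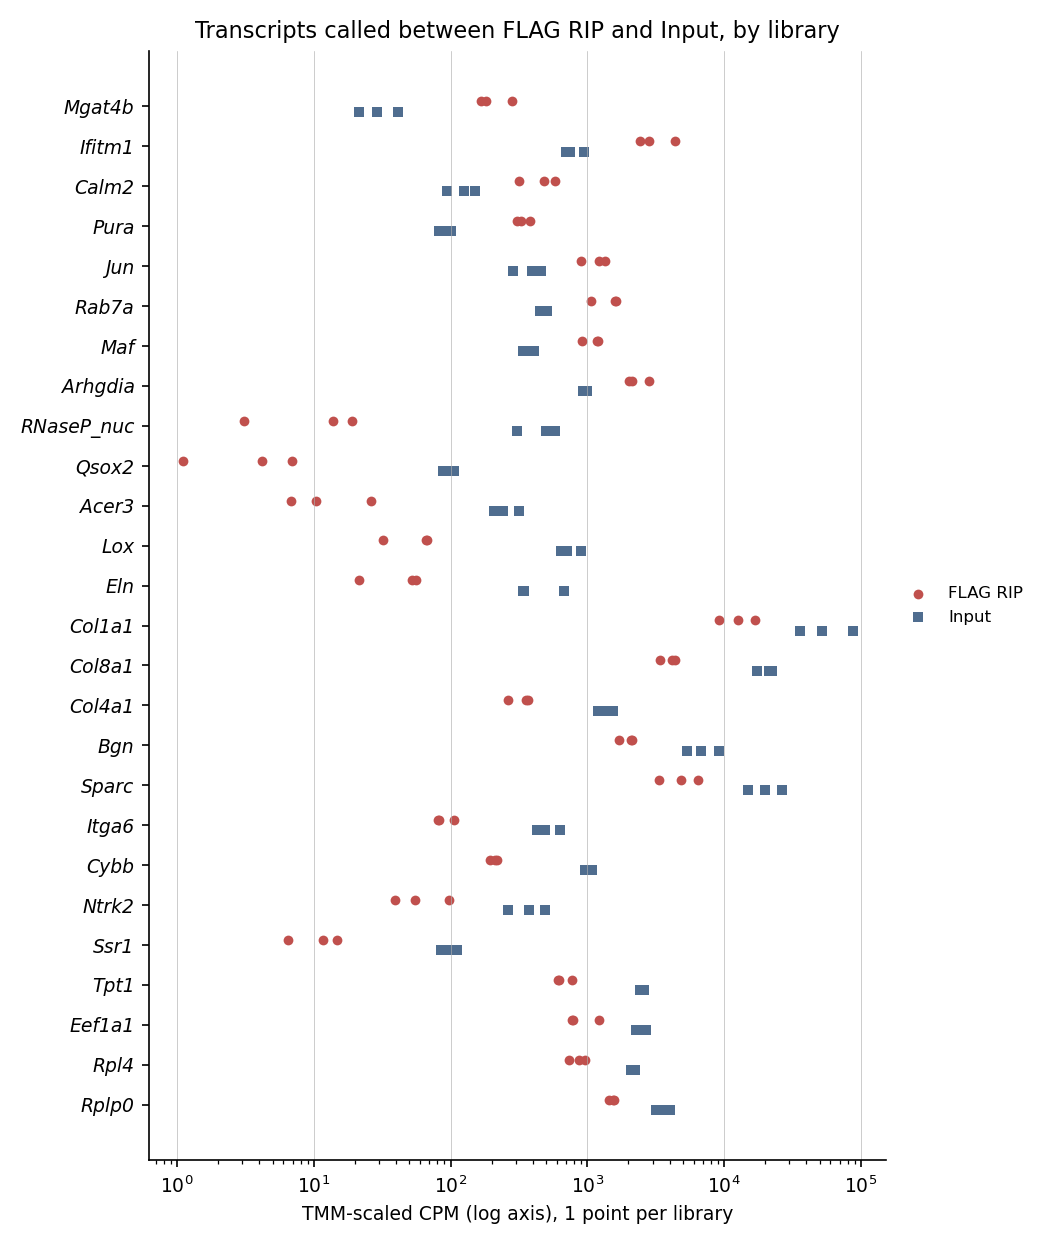
Level in each library (x axis, TMM-scaled CPM, log scale) of the 8 transcripts called higher in FLAG RIP and 18 of the 74 called lower (y axis), with circles for FLAG RIP and squares for Input. In every row the 3 circles lie on one side of the 3 squares, from RNaseP_nuc, at 3.09 to 19.1 against 306.6 to 582.9 CPM, to Rplp0, at 1429 to 1557 against 3157 to 4034 CPM.

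Among the lists, collagen chains had the largest difference in share of reads. Collagen chains together held 2.99%, 2.56% and 1.93% of FLAG RIP reads and 11.5%, 8.61% and 6.66% of Input reads, so even the highest FLAG library held less than the lowest Input library (exact permutation test, two-sided, p = 0.1, the smallest possible). Of 33 collagen entries tested, 4 fell and 0 rose; in 17 all FLAG libraries lay below all Input libraries and in 0 above. The median log2 fold change was -1.08, against 0.13 for all transcripts. Col1a1, the main chain of the fibrils in connective tissue, was at 16852, 12721 and 9191 CPM in FLAG RIP and 87550, 52305 and 36162 CPM in Input. Alone it held 7.94%, 5.04% and 3.74% of Input reads, most of the list's share there. In both groups library 1 was highest and library 3 lowest, and the groups were apart, with a log2 fold change of -2.18 ± 0.35 (edgeR adjusted p = 0.0391). Col8a1, a short-chain collagen of vessel walls and membranes, was at 4393, 3391 and 4158 CPM against 21238, 22300 and 17418 CPM (-2.35 ± 0.19, edgeR adjusted p = 0.00412). Its call held in 5 of the 6 fits that each left out 1 library, that of Col1a1 in 1. Col4a1, a chain of basement membranes, was at 367.7, 354.3 and 262.6 CPM against 1551, 1406 and 1206 CPM (-2.08 ± 0.24), and its call held in 2. Col3a1 shows a smaller difference that did not pass, with 5574, 3168 and 3270 CPM against 10580, 8178 and 5579 CPM (-1.02 ± 0.30, edgeR adjusted p = 0.139).

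Other matrix genes were lower as well, with exceptions. Of 7 small leucine-rich proteoglycans tested, 1 fell, and 5 lay below Input in all libraries, with a median of -1.44. Biglycan (Bgn), which binds collagen and growth factors, was at 2093, 1695 and 2132 CPM in FLAG RIP and 9114, 6836 and 5344 CPM in Input (-1.85 ± 0.24, edgeR adjusted p = 0.0262). Decorin (Dcn), its close relative, was at 2755, 1586 and 2366 CPM against 3274, 2596 and 2130 CPM, so its groups overlapped (-0.25 ± 0.26). Lumican (Lum) lay between them, at 804.3, 688.1 and 576.3 CPM against 1861, 1687 and 1229 CPM (-1.21 ± 0.25, edgeR adjusted p = 0.0714). Sparc, a collagen-binding protein secreted by fibroblasts and endothelium, was at 6494, 3372 and 4843 CPM against 26706, 19997 and 14900 CPM (-2.07 ± 0.30, edgeR adjusted p = 0.0326). Elastin (Eln) was at 21.3, 52.3 and 55.9 CPM against 670, 340.4 and 345.5 CPM (-3.39 ± 0.48, edgeR adjusted p = 0.0316). Lox, the enzyme that crosslinks collagen and elastin, was at 66.9, 66.3 and 32 CPM against 901.4, 714.6 and 641.9 CPM (-3.77 ± 0.37, edgeR adjusted p = 0.00615), and it was called in 4 of the 6 fits with 1 library left out, against 2 for Bgn and Eln and 1 for Sparc. The nidogens, which link laminin to collagen IV, had log2 fold changes of -2.12 (Nid1) and -2.36 (Nid2), both called.

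Integrins, receptors that hold cells to the matrix, shared a list with laminins, which are matrix proteins. Of 24 integrins and laminins tested, 1 fell and 12 lay below Input in all libraries, with a median of -1.31. The 18 integrins had a median of -1.54, with 10 below and 0 above, and the 6 laminins -0.55, with 2 below and 0 above. The difference between them was not tested. Itga6, the laminin receptor subunit of Schwann cells, was at 105.6, 81.8 and 80.5 CPM in FLAG RIP and 635.1, 494.4 and 430 CPM in Input (-2.54 ± 0.29, edgeR adjusted p = 0.0129). Lamc1, a laminin chain, was at 1354, 903.1 and 740.1 CPM against 3620, 3462 and 2182 CPM, a difference that did not pass (-1.63 ± 0.30, edgeR adjusted p = 0.059). Lama4, another laminin chain, overlapped between groups, at 353.9, 254.4 and 287.2 CPM against 388.8, 335.2 and 245.1 CPM. Some other called transcripts code for receptors or their ligands, of which no list was tested. Nrp1, a receptor for class 3 semaphorins and VEGF, was at 19.8, 20 and 9.75 CPM against 248, 159.8 and 115.4 CPM (-3.40 ± 0.49, edgeR adjusted p = 0.0326), and Sema3c, a ligand of that class, fell by 2.88 on the log2 scale. Ntrk2, the receptor of the neurotrophin BDNF, was at 39.1, 96.6 and 55.4 CPM against 486.9, 375.1 and 264.7 CPM (-2.56 ± 0.42, edgeR adjusted p = 0.0416). Among receptors outside the lists, Axl, Lrp4 and F2r had log2 fold changes of -1.73, -2.62 and -2.9, and Pdgfra, a receptor of platelet-derived growth factor in the fibroblast list, -1.67, all called.

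Solute carriers are the membrane transporters of ions and metabolites. Of 167 tested, 1 fell, 46 lay below Input in all libraries and 9 above, with a median of -0.70. Slc44a1, a choline transporter, was the one that fell, at 74.2, 94.9 and 36.5 CPM in FLAG RIP and 463.5, 596.6 and 428.6 CPM in Input (-2.86 ± 0.40, edgeR adjusted p = 0.0308). The 31 carriers of the Slc25 family, which sit in the inner mitochondrial membrane, had a median of -0.04, with 3 below and 1 above Input in all libraries. The 130 entries of other Slc families named alike had a median of -0.92, with 39 below and 8 above. This division was made after values had been seen, and the difference between the families was not tested.

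The machinery of the secretory pathway held both called and overlapping members. Of 56 transcripts of ER translocation and vesicle coats, 3 fell, 13 lay below and 9 above Input in all libraries, and the median was -0.25. Ssr1, a subunit of the complex beside the ER translocation channel, was at 14.9, 11.6 and 6.48 CPM in FLAG RIP and 112.2, 97.5 and 84.9 CPM in Input (-3.16 ± 0.50, edgeR adjusted p = 0.0391). Tmed2, a cargo receptor of the early secretory pathway, was at 102.5, 73.7 and 111.2 CPM against 341.7, 317.4 and 311.3 CPM (-1.76 ± 0.29, edgeR adjusted p = 0.0416). Kdelr2, which returns ER proteins from the Golgi, had a log2 fold change of -1.8 (edgeR adjusted p = 0.0416). The coat subunit Copz1, by contrast, overlapped, at 472.8, 369.2 and 259.6 CPM against 272.6, 212.5 and 223.8 CPM. Outside the lists, the ER proteins Sel1l, Ckap4 and Tmx1 had log2 fold changes of -2.51, -2.22 and -3.62, and the Golgi mannosidase Man2a1 of -2.45, all called. Qsox2, a sulfhydryl oxidase, was at 6.96, 1.1 and 4.18 CPM against 103.7, 87.4 and 106.4 CPM (-4.59 ± 0.71, edgeR adjusted p = 0.0365). Acer3, a ceramidase of ER and Golgi membranes, was at 6.82, 26 and 10.4 CPM against 317.8, 240.7 and 207.8 CPM (-4.15 ± 0.57, edgeR adjusted p = 0.0297).

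Lysosomal transcripts did not go one way. Of 44 tested, 1 fell, 10 lay below and 9 above Input in all libraries, with a median of -0.44. Ctsb, the protease cathepsin B, was at 1614, 1852 and 2511 CPM in FLAG RIP and 4410, 5782 and 5395 CPM in Input (-1.38 ± 0.23, edgeR adjusted p = 0.0416). Cathepsin D (Ctsd) was at 585.9, 1021 and 1466 CPM against 1071, 1590 and 1625 CPM, with overlapping groups. The 19 Atp6v entries, subunits of the proton pump that acidifies lysosomes, had a median of 0.55, with 9 above and 1 below Input, and the 25 remaining entries had a median of -0.53, with 0 above and 9 below. This split, too, was made after the values had been seen and was not tested.

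Most cytosolic ribosomal protein messages had lower values in FLAG RIP. Of 80 cytosolic ribosomal protein entries tested, 3 fell and 0 rose. In 46 all FLAG libraries lay below all Input libraries and in 2 above, and the median was -0.81. Scaled by total counts, 35 lay below and 1 above, with a median of -0.70. Their share of reads was 1.4%, 2.01% and 1.81% in FLAG RIP and 2.46%, 2.83% and 3.41% in Input (exact permutation test, two-sided, p = 0.1, the smallest possible). Rplp0, a protein of the ribosomal stalk, was at 1540, 1429 and 1557 CPM against 3157, 3487 and 4034 CPM (-1.24 ± 0.19, edgeR adjusted p = 0.0365). Rpl4, of the large subunit, was at 962.5, 737.7 and 869.4 CPM against 2224, 2094 and 2225 CPM (-1.35 ± 0.20, edgeR adjusted p = 0.0336). Rps4x, of the small subunit, fell by 1.53 on the log2 scale. Ribosomal protein genes have many processed pseudogenes, and how the authors' counting divided shared reads is not known.

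Ribosomal protein mRNAs are known for starting with a C followed by a run of pyrimidines, through which their translation is controlled. RefSeq windows around the annotated start (GRCr8) matched 56 of the 80 entries by symbol, 70%, which is under the 80% needed, so a comparison of members with and without such a start is void. A C at the annotated start followed by at least 4 C or T bases was found in 2.63% of all 33469 windows, read on the gene's own strand. To show what such a start looks like, the 5 most abundant members that hold it are printed from 15 bases before the start to 15 bases from it, 5′ to 3′, with the pyrimidine run in capitals.
Rplp0 (chr12:46718376-46718405, minus strand): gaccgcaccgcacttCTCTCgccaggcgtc
Rpl35 (chr3:43165907-43165936, minus strand): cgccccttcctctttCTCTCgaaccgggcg
Rpl37a (chr9:81748076-81748105, plus strand): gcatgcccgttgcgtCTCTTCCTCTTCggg
Rpl19 (chr10:83519049-83519078, plus strand): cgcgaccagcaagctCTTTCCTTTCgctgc
Rps15 (chr7:10068101-10068130, minus strand): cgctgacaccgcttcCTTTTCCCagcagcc
These 5 did not share one value. The log2 fold change was -1.24 for Rplp0, -1.07 for Rpl35, -0.51 for Rpl37a, -1.46 for Rpl19 and -0.29 for Rps15, and of them Rplp0 was called. All FLAG libraries lay below all Input libraries in the first 4, and the groups overlapped in Rps15.

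Translation factors were divided. Of 61 tested, 3 fell and 0 rose, while 16 lay below and 15 above Input in all libraries, with a median of -0.18. The 3 that fell were among the most abundant. Tpt1, the translationally controlled tumour protein, whose mRNA is carried into axons, was at 612.2, 624.7 and 774.4 CPM in FLAG RIP and 2598, 2417 and 2561 CPM in Input (-1.91 ± 0.20, edgeR adjusted p = 0.01). Both groups were tight and far apart. Eef1a1, the elongation factor that brings tRNA to the ribosome, was at 1213, 770.4 and 785.6 CPM against 2277, 2698 and 2699 CPM (-1.47 ± 0.24, edgeR adjusted p = 0.0419). The poly(A)-binding protein Pabpc1 was at 298.8, 428.2 and 349.3 CPM against 828.8, 1002 and 1125 CPM (-1.46 ± 0.25, edgeR adjusted p = 0.0434). Eef2, the translocation factor, overlapped between groups, at 3463, 2584 and 3196 CPM against 3072, 3271 and 3925 CPM. Ybx1, an mRNA-packaging protein, and the entry of its pseudogene Ybx1-ps3 had log2 fold changes of -2.6 and -3.13, both called, and reads may be split between such copies.

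Of the small noncoding RNAs, few could be tested and 1 was called. RNaseP_nuc, the RNA subunit of nuclear ribonuclease P, which trims tRNA ends, was at 19.1, 13.9 and 3.09 CPM in FLAG RIP and 582.9, 497.1 and 306.6 CPM in Input. Behind these values were 286, 114 and 51 reads in FLAG RIP and 2489, 2208 and 1499 in Input. It had the largest called change, -5.26 ± 0.68 (edgeR adjusted p = 0.0262). RNase_MRP, the RNA of the related ribonuclease MRP, was at 67.2, 16.1 and 8.42 CPM against 23.2, 27 and 20.7 CPM, so its groups overlapped and FLAG RIP 1 alone was high. Of 74 entries of polymerase III RNAs, 16 passed the filter on low counts, mostly copies of 7SK and U6, and of the 80 small nucleolar and Cajal body entries 16 passed. Entries seen in Input alone can pass that filter, so the members tested do not stand for the whole lists. The polymerase III list held 0.0107%, 0.00642% and 0.00318% of FLAG RIP reads and 0.0738%, 0.0651% and 0.0513% of Input reads over all its entries, and 30 of the 74 had 0 reads in all FLAG libraries against 6 in all Input libraries. In the nucleolar list 30 of 80 had 0 reads in all FLAG libraries and 5 in all Input libraries. Zeros were more frequent in FLAG RIP over all 13416 entries too, at 1601, 776 and 1568 per library against 603, 477 and 418 in Input. How many of all entries, or of equally rare ones, had 0 reads in all libraries of a group was not counted. These zeros are therefore not shown to be particular to small RNAs. The share of reads of the nucleolar list overlapped between groups. It was 0.0233%, 0.00702% and 0.0067% in FLAG RIP, where library 1 was the highest of all 6, and 0.0146%, 0.0179% and 0.0167% in Input (exact permutation test, two-sided, p = 0.4). SNORA36 was at 100.6, 0.366 and 0 CPM in FLAG RIP and 2.34, 1.13 and 5.11 CPM in Input. Library preparation and size selection, which decide how much of an RNA this short is kept, are not known.

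Of 12 microRNA gene entries, 3 passed the filter. Whether their reads came from mature miRNA, hairpin or host transcript cannot be told from the table. The mature sequences of the 2 whose groups did not overlap are shown, from RefSeq (GRCr8), 5′ to 3′, with the seed (bases 2 to 8) in capitals, since no 2 of the 4 share a seed.
rno-miR-675-5p: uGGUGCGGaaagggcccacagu
rno-miR-675-3p: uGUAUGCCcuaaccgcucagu
rno-miR-142-5p: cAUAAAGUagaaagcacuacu
rno-miR-142-3p: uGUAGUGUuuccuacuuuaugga
Mir675, which in mammals lies inside the imprinted noncoding gene H19, was at 170.9, 338.7 and 188.8 CPM in FLAG RIP and 463.2, 809.1 and 702.7 CPM in Input (-1.50 ± 0.35, edgeR adjusted p = 0.0903). Mir142, a microRNA gene of blood cells, was at 0, 0.61 and 0.182 CPM against 10.3, 2.93 and 12.3 CPM (edgeR adjusted p = 0.16). Neither passed the test.

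Nuclear-encoded messages of the respiratory chain and the proteasome had more members above Input than below. No member of either list was called. Of 78 oxidative phosphorylation entries tested, 28 lay above Input in all libraries and 2 below, with a median log2 fold change of 0.71. Their share of reads was 0.639%, 0.724% and 0.796% in FLAG RIP and 0.355%, 0.388% and 0.49% in Input (exact permutation test, two-sided, p = 0.1, the smallest possible). Atp5b, the catalytic subunit of ATP synthase, was at 449.2, 590 and 629.3 CPM in FLAG RIP and 223, 228.3 and 290.7 CPM in Input (1.17 ± 0.26, edgeR adjusted p = 0.0807). Uqcrh, of complex III, was at 546.2, 454.4 and 545 CPM against 212.9, 233.5 and 339.4 CPM (0.98 ± 0.27). Cox7a2l, an assembly factor of respiratory supercomplexes, went the other way, at 281.5, 252.2 and 275 CPM against 511, 519.4 and 512 CPM (-0.93 ± 0.22, edgeR adjusted p = 0.0968). Of 57 mitochondrial ribosomal proteins, 14 lay above and 3 below, with a median of 0.63. Mrpl33 was at 112.2, 114 and 123.6 CPM against 52, 77.2 and 75.1 CPM.

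Of 42 proteasome entries, 18 lay above Input in all libraries and 1 below, with a median of 0.95. Psmb4, of the catalytic core, was at 170, 215.3 and 256.8 CPM in FLAG RIP and 91.1, 117.3 and 131.5 CPM in Input (0.92 ± 0.31, edgeR adjusted p = 0.19). Actin and its regulators had 18 of 52 above and 4 below, with a median of 0.29. Tpm4, a tropomyosin that coats actin filaments, was at 1382, 1689 and 1633 CPM against 664.4, 863.4 and 830.3 CPM (1.00 ± 0.22, edgeR adjusted p = 0.0735). Tmsb4x, which holds actin monomers, overlapped, at 1346, 2621 and 3240 CPM against 1706, 2144 and 2180 CPM. In the lists of nuclear proteins 0 members were called by edgeR: 13 of 50 hnRNP and SR proteins lay above and 6 below (median 0.49), 11 of 54 spliceosome components above and 2 below (0.47), and 4 of 23 histones above and 0 below (0.75). Hnrnpul1 was at 686.2, 553.7 and 589.4 CPM against 380.1, 364.5 and 409.1 CPM (0.66 ± 0.22, edgeR adjusted p = 0.182). The chaperones were close to the background, with 10 of 60 above and 8 below and a median of 0.22.

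**Figure D4:**
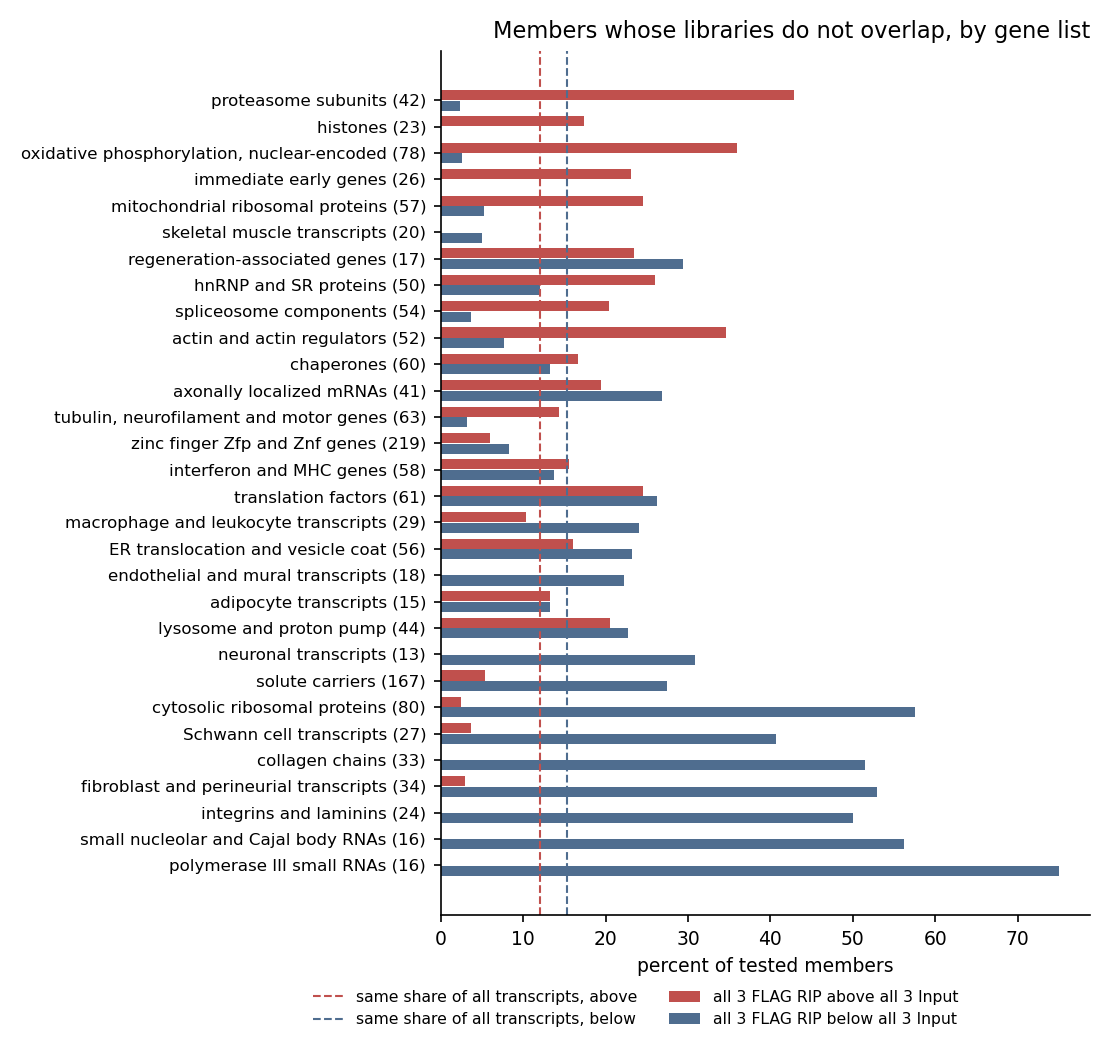
Percent of the tested members of each gene list (y axis, number tested in brackets) whose 3 FLAG RIP libraries all lie above or all lie below the 3 Input libraries (x axis), for lists with 13 or more members tested, ordered by median log2 fold change. Dashed lines mark the same shares over all transcripts, 12.1% above and 15.3% below. Proteasome and oxidative phosphorylation bars pass the line above, and ribosomal protein, collagen, fibroblast and integrin bars pass the line below.

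Injury and growth genes were mixed. Immediate early genes, which switch on without new protein synthesis, had 6 of 26 above Input in all libraries and 0 below, with 1 called (Jun) and a median of 0.71. Rhob, a stress-induced GTPase, was at 1049, 1183 and 1691 CPM in FLAG RIP and 648.5, 699.9 and 835.8 CPM in Input (0.84 ± 0.25, edgeR adjusted p = 0.139). Egr1 overlapped, at 938.6, 833.2 and 1096 CPM against 922.7, 739.8 and 623.5 CPM. In the regeneration-associated list 1 of 17 rose (Jun) and 1 fell (Cd44), and 4 lay above and 5 below. Cd44, the hyaluronan receptor, was at 95, 44.3 and 57 CPM against 260.9, 370.8 and 304 CPM (-2.25 ± 0.37, edgeR adjusted p = 0.0416). Gap43, the growth cone protein, was at 24.5, 16.8 and 10.2 CPM against 108, 46.8 and 75.5 CPM, apart but not called (-2.16 ± 0.56, edgeR adjusted p = 0.111). Stat3, a retrograde injury signal, was at 285.6, 371.9 and 371.4 CPM against 296.3, 303.5 and 296.2 CPM, with overlapping groups (0.20 ± 0.24).

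Of 41 axonally localized mRNAs, 1 rose (Pura), 2 fell (Tpt1 and Eef1a1), 8 lay above and 11 below, with a median of 0.20. The deeper of 2 entries of Actb, the mRNA of beta-actin that axons translate locally, was at 129.7, 157 and 130.4 CPM in FLAG RIP and 116.9, 163 and 147.5 CPM in Input, a difference of -0.04 ± 0.31. Kpnb1, the importin whose axonal mRNA takes part in injury signalling, was at 922.8, 435.4 and 466.3 CPM against 616.2, 635.5 and 586.5 CPM (-0.01 ± 0.32). Nrn1, which promotes neurite growth, was at 2.41, 4.51 and 8.42 CPM against 39.1, 15.8 and 16.6 CPM (-2.22 ± 0.84, edgeR adjusted p = 0.224), and Bcl2l2, a survival factor of axons, at 54, 52.1 and 24.8 CPM against 139.1, 104.7 and 96.6 CPM (-1.38 ± 0.44). Both lay below Input in all libraries without passing. Of the mRNAs of precipitated proteins, Ssb, which codes for La, was at 73.4, 79.9 and 112.3 CPM against 37.7, 33.5 and 34.8 CPM, above Input but not called (1.32 ± 0.40, edgeR adjusted p = 0.146). Hnrnph1 was at 22.3, 2.44 and 7.39 CPM against 7.26, 6.75 and 5.93 CPM, with a spread in FLAG RIP that spanned Input.

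Cell type lists differed in how much of them the FLAG RIP held. Fibroblast and perineurial transcripts held 3.01%, 2.46% and 1.93% of FLAG RIP reads against 10.4%, 7.13% and 5.41% in Input (exact permutation test, two-sided, p = 0.1, the smallest possible). Of 34 tested, 5 fell (Col1a1, Col5a1, Lox, Fstl1 and Pdgfra), 18 lay below and 1 above, with a median of -1.29. This list shares 8 entries with the collagen list, 23.5% of its own and 24.2% of the collagens. By reads the overlap was larger. Col1a1, in both lists, alone held 7.94%, 5.04% and 3.74% of Input reads, most of the Input share of either list. Their differences in share are therefore not separate results. Schwann cell transcripts had 0 of 27 called, 11 below and 1 above, with a median of -0.98. In the neuronal list 1 of 13 fell (Ntrk2) and 4 lay below and 0 above, with a median of -0.67. The share of this list was 0.0337%, 0.029% and 0.0291% in FLAG RIP. Ntrk2 had 585, 792 and 915 reads there and 2079, 1666 and 1294 in Input. Much of the list's difference in share was thus this 1 gene. Nefm, a neurofilament subunit, overlapped, at 72.2, 24.1 and 46.6 CPM against 17.6, 68 and 28.8 CPM.

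Macrophage and leukocyte transcripts had 1 of 29 called, 7 below and 3 above, with a median of -0.25, and their share of reads overlapped between groups. Cybb, the oxidase subunit of phagocytes, was at 210.1, 219 and 194.7 CPM in FLAG RIP and 960.2, 1087 and 976 CPM in Input (-2.28 ± 0.22, edgeR adjusted p = 0.00615). Fcer1g, an Fc receptor chain of the same cells, overlapped, at 601, 812.3 and 1061 CPM against 809.8, 805.7 and 867.1 CPM. In the endothelial list 0 of 18 were called and 4 lay below, with a median of -0.25. Erythrocyte transcripts held 2.25%, 0.753% and 1.08% of FLAG RIP reads against 0.93%, 0.403% and 0.527% of Input reads, which overlap (exact permutation test, two-sided, p = 0.2). Hba1 was at 20850, 5647 and 9893 CPM against 8435, 3341 and 4107 CPM, while Hba2 was at 1155, 407.3 and 536.2 CPM against 1324, 619.8 and 628.8 CPM. Reads of the near-identical alpha-globin copies cannot be assigned with certainty. Skeletal muscle transcripts, a list for the tissue next to the nerve, held 0.377%, 0.0455% and 0.147% of FLAG RIP reads and 0.283%, 0.0523% and 0.137% of Input reads, so libraries of the same number were alike in both groups. Adipocyte transcripts had 2 of 15 above and 2 below, and of the 3 keratin entries tested, 0 were apart from Input. The part of these lists in the other results was not tested.

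Interferon and MHC genes had 1 of 58 called higher (Ifitm1), with 9 above and 8 below and a median of 0.08. B2m, the light chain of MHC class I, was at 1568, 1360 and 1839 CPM in FLAG RIP and 3652, 3250 and 2886 CPM in Input, the opposite side from Ifitm1 (-1.04 ± 0.21, edgeR adjusted p = 0.0691). Zinc finger genes had 13 of 219 above and 18 below and a median of 0.12, both shares under the background. Tubulin, neurofilament and motor genes had 9 of 63 above and 2 below, with a median of 0.16.

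The FLAG RIP was also set beside the RIPs that have a target, with which it shares the beads and the precipitation. Of 13227 transcripts tested over the 15 RIP libraries, 4632 (35%) differed between the FLAG RIP and the mean of the 4 specific RIPs, 2516 higher (19%) and 2116 lower (16%), by edgeR's quasi-likelihood test with Benjamini-Hochberg adjustment. Scaled by total counts, 3735 were higher and 1568 lower, and the median log2 fold change of all transcripts moved from 0.13 to 0.51. The 15 RIP libraries shared 1 estimate of spread per transcript. That estimate would be too small for the FLAG RIP if its libraries varied more than the others. Sharing the spread over all 18 libraries moved the calls against Input from 82 to 1576. The 4632 calls and their p-values are therefore not on the same footing as those 82. This comparison uses the same FLAG libraries as that with Input, so the values of both are given side by side. Ifitm1 had a mean of 2730 CPM in FLAG RIP, 644.3 in Input, 214 in hnRNP H1 RIP, 274.5 in hnRNP F RIP, 255 in hnRNP K RIP and 456.1 in La/SSB RIP, scaled over all 18 libraries. Its log2 fold change was 3.28 against the specific RIPs (edgeR adjusted p = 2.06e-07) and 2.01 against Input. Mgat4b was at 178.5 CPM in FLAG RIP and between 18.5 and 26.7 CPM in the other 5 groups. By mean level 6 of the 8 transcripts that rose were highest in FLAG RIP among the 6 groups. The 8 had been called for high values in these same FLAG libraries, which fixed their place above Input. The same share over all transcripts was not counted, so the count is a description only. Calm2 was at 392.2 CPM with 114.1 in the next group, Pura at 285.8 with 167, Rab7a at 1215 with 886 and Maf at 923.3 with 625.2. The other two were not: Jun was at 985.1 CPM in FLAG RIP, 2025 in hnRNP H1 RIP and 1576 in hnRNP F RIP, and Arhgdia at 1978 CPM in FLAG RIP and 2718 in hnRNP K RIP.

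Among transcripts that fell against Input, the specific RIPs lay on either side. Lox was at 46.6 CPM in FLAG RIP, 605.7 in Input, 160.2 in hnRNP H1 RIP, 188.4 in hnRNP F RIP, 1218 in hnRNP K RIP and 291.8 in La/SSB RIP, so the FLAG RIP was the lowest of all groups (-2.76 against the specific RIPs, edgeR adjusted p = 7.07e-06). Tpt1 was at 569.2 CPM in FLAG RIP, 2033 in Input, 307.2 in hnRNP H1 RIP, 474.2 in hnRNP F RIP, 166.4 in hnRNP K RIP and 954.6 in La/SSB RIP. The FLAG RIP thus lay within the range of the specific RIPs for that mRNA, and above their mean (0.58, edgeR adjusted p = 0.0392). RNaseP_nuc was at 10.2 CPM in FLAG RIP, 371.8 in Input, 17.4 in hnRNP H1 RIP, 17.8 in hnRNP F RIP, 3.83 in hnRNP K RIP and 131.3 in La/SSB RIP. Its difference from the mean of the specific RIPs did not pass (-0.94 ± 0.55, edgeR adjusted p = 0.199). Hba1, at 10372 CPM in FLAG RIP, was between 463.1 and 2373 CPM in the specific RIPs (3.2, edgeR adjusted p = 3.2e-06) without differing from Input beyond the spread (1.2 ± 0.49, edgeR adjusted p = 0.255). Apod, a lipid carrier made by nerve fibroblasts and Schwann cells, was at 21408 CPM in FLAG RIP, 12310 in Input and between 2604 and 14543 CPM in the specific RIPs.

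**Figure D5:**
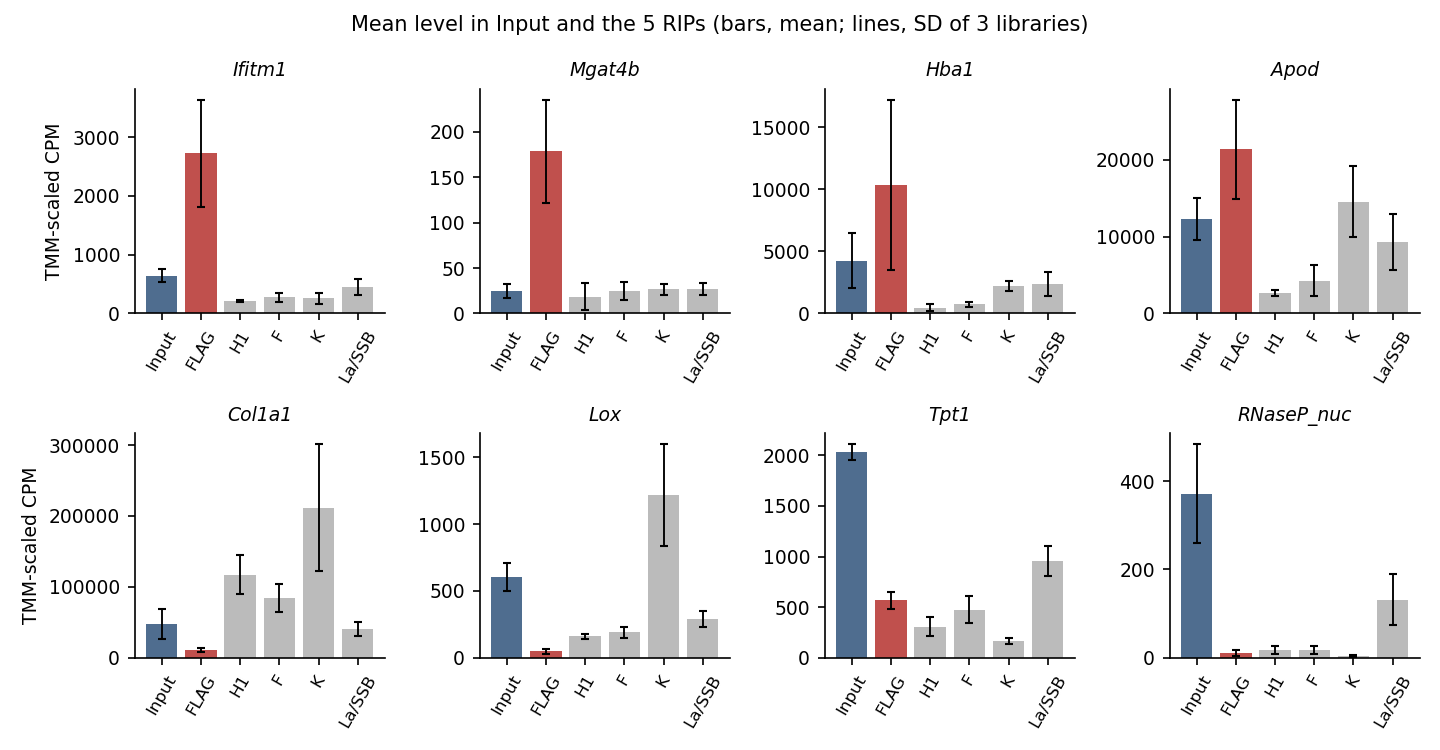
Mean level in TMM-scaled CPM (y axes, each from 0) of 8 named transcripts in Input, the FLAG RIP and the 4 specific RIPs (x axes); bars are means and lines the SD of 3 libraries. FLAG RIP is highest of the 6 groups for Ifitm1 (2730 CPM) and Mgat4b (178.5 CPM). It is also highest for Hba1 (10372 CPM) and Apod (21408 CPM), which were not called against Input. It is lowest for Col1a1 (10961 CPM) and Lox (46.6 CPM), and within the range of the specific RIPs for Tpt1 and RNaseP_nuc.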

How the data were processed

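Read counts per transcript in 3 FLAG RIP and 3 Input libraries were taken from the deposited table, whose counts are, per the values, read counts to which the authors added 1. The 1 was subtracted. The FPKM values were deposited per library as well, and gave 1 length per transcript, taken over all 18 libraries. They were also used to check the subtraction. Recomputed from the counts minus 1 and those lengths, they matched to within a relative 2.4e-14. The authors' deposited log2 fold changes and FDR (adjusted p-value) columns come from edgeR per the submitters' processing notes, which also name CASAVA 1.8.2; they are quoted only as the authors' deposited table. The aligner, counter, strand setting, genome build and filter of the table were not stated in the labels. In La/SSB RIP 1 no entry has fewer than 10 reads. The FPKM columns were not analysed further, and the table's 18 columns of normalized counts were not used.

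Transcripts were filtered with filterByExpr (minimum count 10, minimum total 15), scaled with TMM and tested with edgeR 4.0.16 (limma 3.58.1, R 4.3.3), with 4 residual degrees of freedom; the 15 RIP libraries gave 10. Tests were two-sided, and a call is a Benjamini-Hochberg adjusted p under 0.05. Levels are TMM-scaled CPM and log2 fold changes are ± SE. Shares of reads were compared by exact permutation. Totals ran from 4610750 to 16754262 reads. Counts were simulated at these depths (11173 transcripts), with changes placed only in transcripts at a mean of at least 20 CPM. Recovery was 4%, 24%, 72% and 72% of changes of 1, 2, 3 and 4 on the log2 scale, with 3 false among 89 calls. Many real changes under 3 would thus be missed at such levels. Both groups were simulated with the same spread per transcript, although FLAG RIP libraries varied more than Input. Recovery and false calls under unequal spread, or for rarer transcripts, were not tested. Named genes were the 10 highest and 10 lowest calls with a symbol, at least 20 CPM in the higher group and groups that do not overlap, the 2 best calls per direction in each list, a fixed set (of which 1 is not reported here; Ssb, Hnrnph1, Hnrnpf, Hnrnpk, Gap43, Nrn1, Actb, Kpnb1, Jun, Stat3, Col1a1, Hba1, Apod, Bcl2l2) and the 3 most abundant transcripts per group. Hnrnpf did not pass the filter and Hnrnpk was not analysed here. Other examples are among the 3 most abundant members of a list or were chosen after their values were seen. The libraries, lists and rules were chosen with earlier results of these data known. Of 37 lists, 2 (mitochondrially encoded and nuclear-retained long noncoding RNAs) had 0 entries. The polymerase II small nuclear RNAs had 2 members tested, both overlapping. Alternatives were other scalings, filters, DESeq2 1.42.0, counts as deposited, all 18 libraries in the fit, a length correction, a replicate block and each library left out.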

Additional observations from a re-analysis of the deposited data

How the results depend on the processing

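The 82 called transcripts kept their direction in all alternatives run, which was all but fixed because their groups did not overlap. The number called depended on the setting. It was 45 with no filter on low counts (40 lower, 5 higher), 174 with a minimum count of 50 (141 and 33), 32 on counts as deposited (28 and 4), 1576 over all 18 libraries (980 and 596), 20 with the length trend removed (17 and 3), 1083 with DESeq2 (473 and 610) and 70 with RLE size factors. Scaled by total counts, 17 were higher. Leaving out 1 library gave 0 to 83 calls, 0 to 68 lower and 0 to 15 higher; these fits had 3 residual degrees of freedom. Of the 82, 82 were also called over all 18 libraries, with DESeq2 and with a minimum count of 50. The replicate block gave 44 calls (43 lower, 1 higher), 37 of them among the 82. The main fit did not pair the samples by number, and whether the numbers mark shared preparations is not known. Deviations of same-numbered FLAG and Input libraries correlated at 0.089, 0.053 and 0.045. These values are low, but the deviations of each FLAG library correlated best with those of the Input library of its own number. The median of all transcripts moved from 0.13 to -0.15 with the block and 0.32 with the length trend removed. List medians kept their sign under total counts and RLE size factors. They changed sign in 6 lists with the replicate block, hnRNP and SR proteins among them (0.49 to -0.09), and in 2 with the length trend removed. With 1 library left out, the medians of 9 lists changed sign in at least 1 fit. These were skeletal muscle (-0.52 to 1.52), adipocytes (-2.16 to 0.24), erythrocytes (-0.32 to 0.78), translation factors (-0.17 to 0.02), ER and coat (-0.26 to 0.01), motor genes (-0.04 to 0.25), interferon genes (-0.08 to 0.16), keratins (-0.91 to 1.14) and polymerase II small nuclear RNAs (-4.74 to 1.57). Of 35 lists, 18 to 22 had a median below that of all transcripts. The comparison with the specific RIPs gave 4418 calls with the replicate block and 4012 to 5098 with 1 FLAG library left out. The cause of these changes was not tested. Depth limits rare transcripts most: 3 reads are 0.179 to 0.651 CPM.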

Other observations

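Single FLAG libraries held transcripts far above their level in the other 5 libraries. Transcripts with at least 50 CPM in 1 library and at least 10 times the highest of the other 5 numbered 22 in FLAG RIP 1, 1 in FLAG RIP 2, 27 in FLAG RIP 3 and 0 in each Input library. The highest in FLAG RIP 3 was Hectd3, which codes for a ubiquitin ligase, at 1113 CPM against at most 45.7 CPM elsewhere. In FLAG RIP 1 it was Slc16a11, a monocarboxylate transporter family member, at 320.8 CPM against at most 25 CPM, and in FLAG RIP 2 the zinc finger gene Zfp235 at 116.2 CPM against at most 6.62 CPM. These transcripts were chosen by this measure after the values had been seen.

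Losses were rarely complete. Of 7893 transcripts with at least 30 reads in each Input library, 65 had 0 reads in FLAG RIP 1, 13 in FLAG RIP 2 and 56 in FLAG RIP 3, and 1 had 0 reads in all of them. Of 8118 transcripts with at least 30 reads in each FLAG library, 0 had 0 reads in all Input libraries.

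The median log2 fold change differed between classes of transcript length, with no single direction. The median was 0.43 for the 951 transcripts of over 500 to 1000 bases, 0.34 for the 3444 of up to 2000, 0.08 for the 4500 of up to 4000, -0.11 for the 2050 of up to 8000 and -0.02 for the 239 above 8000 bases. For the 479 of 500 bases or fewer it was -0.28.

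Muscle transcripts ran in parallel by library number. Acta1, the actin of skeletal muscle, was at 859.4, 12.1 and 248.8 CPM in FLAG RIP 1 to 3 and 832.3, 28.1 and 326.1 CPM in Input 1 to 3. Ckm, muscle creatine kinase, was at 570, 12 and 298.4 CPM and at 412.2, 25.4 and 106.6 CPM in the same order.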
